A study of Mus musculus with 8 samples.

Results

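The comparison described here is the interaction between stage and genotype in mouse spermatids. For each gene it is the difference between KO-labelled and wild-type (WT) libraries in elongating spermatids minus the same difference in round spermatids. A positive interaction means that the knockout effect was higher in elongating spermatids, and a negative one that it was lower. Of 16349 genes in the deposited table, 15685 reached 10 or more in at least 2 of the 8 libraries and were tested. The gene nearest to this limit on the inside had a second-highest value of 10.1, and the nearest outside had 9.70.

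The 8 libraries form 4 groups of 2, all of them from testis of C57BL/6 mice. The groups are round spermatids labelled WT, round spermatids labelled cKO, elongating spermatids labelled WT and elongating spermatids labelled cKO. The label cKO stands for a conditional knockout of Carm1, and the promoter that drives the recombinase is not given in the sources used here. No group received a treatment. Cells of each sample came from 8 testes and were separated by centrifugal elutriation, which sorts cells by size, so each library is a pool. Whether the 2 libraries of a group come from different mice is not stated, and p-values then measure only the spread between libraries, which may be technical. In bulk samples, fewer cells of a type and less RNA per cell cannot be told apart.

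Spermatids are the haploid cells that follow meiosis. Round spermatids transcribe actively and build the acrosome, the secretory cap of the sperm head. In elongating spermatids the nucleus is compacted as histones give way to transition proteins and then protamines, the tail is assembled, transcription stops, and many stored messages are translated late. CARM1 is an arginine methyltransferase and a coactivator of transcription that works with the acetyltransferases p300 and CBP. CREM is the transcription factor that turns on many postmeiotic genes, and its coactivator in the testis is ACT, the product of Fhl5. The kinesin KIF17 carries ACT out of the nucleus.

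Values below are the deposited normalised read counts of a library. Effects are differences of log2(value + 1), with the standard error (SE) from limma where given. A gene was called at an adjusted p under 0.05 from limma with Benjamini-Hochberg adjustment over all 15685 genes, two-sided, and "rose", "fell", "higher" and "lower" of an effect are used for called genes. The libraries held 17190962 to 23526694 recovered reads. The 50 most abundant genes took 10.1% to 10.3% of reads in round and 31.9% to 34.9% in elongating libraries, so the scaling between libraries bears on each effect in elongating cells. The median interaction of all tested genes was -0.04 with the deposited scaling and -0.07 with edgeR TMM factors. It was -0.49 with total-count scaling and -0.44 with library sizes that leave out the 50 most abundant genes. The TMM, total-count and reduced library size scalings are called the other scalings below.

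The stage labels were checked against 2 marker lists. The genes listed as late, 16 in number and led by the protamine genes, took 1.75% to 1.92% of reads in round libraries. They took 12.6% in both elongating WT libraries and 14.4% to 14.5% in the elongating KO-labelled libraries. Their member Tsga8 went the other way, with lower values in elongating than in round WT libraries. The 16 early genes took 0.63% to 0.68% in round, 0.42% in elongating WT and 0.36% to 0.37% in elongating KO-labelled libraries.

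Carm1 itself, the targeted gene (chromosome 9, 21546894 to 21592623, GRCm38, plus strand), reversed between the stages. It measured 1649 and 1686 in the round WT libraries and 1174 and 1343 in the round KO-labelled libraries. In elongating spermatids it measured 4308 and 4534 in WT libraries, against 8157 and 7993 under the KO label. WT and KO-labelled libraries did not overlap at either stage, but they differed in opposite directions. The effect was -0.41 in round (adjusted p = 3.8e-05, limma) and 0.87 in elongating spermatids (adjusted p = 2.7e-09, limma). The interaction was 1.28 (SE 0.075, adjusted p = 1.1e-08, limma). Under total-count scaling it was 0.80, from -0.50 in round and 0.31 in elongating cells, so the reversal did not turn with this scaling. Carm1 was also one of the 13 genes of its reversal class that stayed in it in all 18 alternative settings. These include edgeR, DESeq2 and a stricter limit, and are called alternative fits below. Of the opposite class 135 genes stayed. The total in elongating cells was higher under the label cKO, so the totals do not bear out a loss of Carm1 at that stage. For this reason KO-labelled is used throughout, and each direction given for that stage rests on the label. A total over the gene does not show whether the deleted exons are missing. Carm1 overlaps Yipf2 on the opposite strand, and the library kit does not mark strand.

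The knockout effect differed between the stages for 5781 genes. It was higher in elongating spermatids for 3031 genes, 19.3% of those tested, and lower for 2750 genes, 17.5%. At an unadjusted p under 0.05 there were 7017 such genes. A difference of over 2-fold was seen for 432 genes with a higher and 714 with a lower effect in elongating cells. Within a stage, 5018 genes (32.0%) were called in round and 8627 (55.0%) in elongating spermatids. Of 3677 genes called at both stages, 2908 changed in the same direction and 769 in opposite directions. Of the 5781 genes with a called interaction, 2909 were called in elongating cells only, 673 in round cells only, 1253 at both stages in the same direction and 769 in opposite directions, while 177 were called at neither stage.

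The split between higher and lower interactions depended on the scaling. It was 3031 against 2750 with the deposited values and 2871 against 2976 with TMM factors. With library sizes that leave out the 50 most abundant genes it was 1069 against 6352, and with total-count scaling 858 against 7071. The interaction was called in the same direction under the deposited and all 3 other scalings for 856 genes with a higher effect in elongating cells (5.46% of those tested) and for 2748 with a lower effect (17.5%). Each of the other scalings moved the median interaction down, so 2748 of 2750 lower calls held, against 856 of 3031 higher calls. That the lower calls of a list held therefore says little about the list. Total-count scaling took the median effect of all genes in elongating cells from -0.07 to -0.61 and that in round cells from 0.03 to -0.06, so an elongating effect is to be read against these medians.

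**Figure D1:**
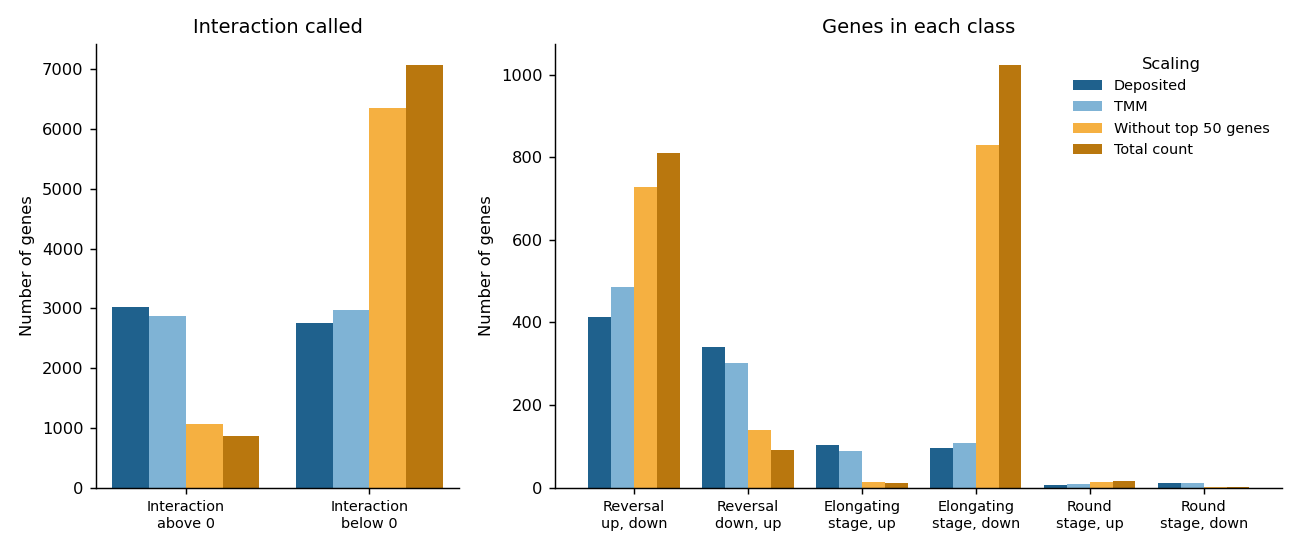
Number of genes with a called interaction (left) and in each class of reversal or single-stage change (right) under 4 scalings of the libraries, as bars from 0. The interactions below 0 go from 2750 with the deposited scaling to 7071 with total-count scaling, and the class that fell in elongating cells with a small round effect goes from 96 to 1023.

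Genes whose knockout effect reversed or was large at a single stage were sorted into 6 classes, among the 13365 genes that reached 10 in at least 2 libraries of each stage. A reversal needed a called interaction and called effects of opposite sign at the stages. A single-stage change needed a called interaction, a called effect of at least 2-fold at that stage, and a 95% interval of the other stage's effect inside -0.5 to 0.5. The other stage's effect could therefore be small and still called. There were 413 genes that rose in round and fell in elongating cells (3.09% of 13365) and 340 that fell in round and rose in elongating cells (2.54%). Among the same 13365 genes 1842 rose and 962 fell at both stages. With the genotype labels of the elongating libraries exchanged, those would be the genes with opposite effects and the reversals would be changes in the same direction; no label was exchanged here. In the elongating stage 104 genes rose with a small round effect (0.778%) and 96 fell (0.718%). In the round stage 7 genes rose (0.0524%) and 11 fell (0.0823%) with a small effect in elongating cells. The other stage was not called at all for 58 of the 104, 84 of the 96, 6 of the 7 and 8 of the 11. Membership in 2 classes at once was found for 8 genes. Under all 3 other scalings as well, 237 of the 413, 36 of the 340, 6 of the 104, 74 of the 96, 1 of the 7 and 0 of the 11 stayed in their class.

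**Figure D2:**
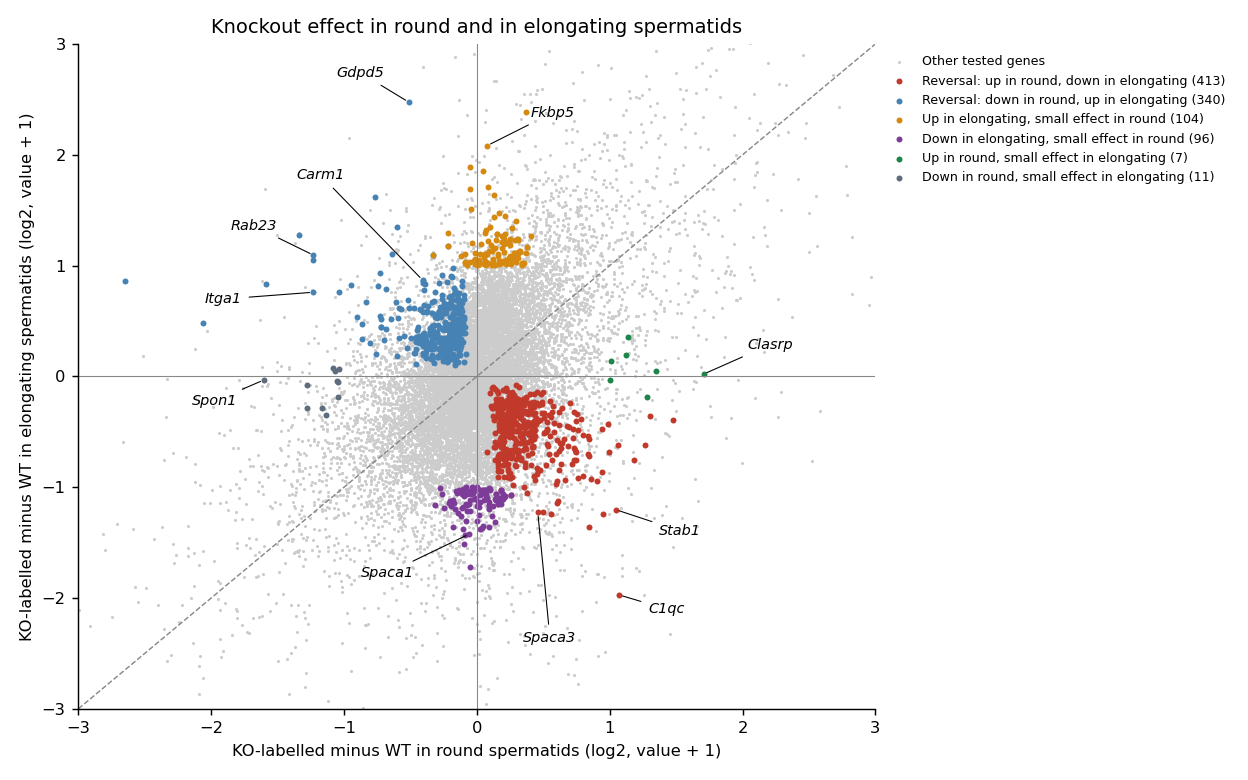
Knockout effect in elongating spermatids (vertical axis) against that in round spermatids (horizontal axis), both as log2(value + 1) differences, for each tested gene, with the 6 classes in colour and 134 genes outside the axes not drawn. The reversal classes fill the upper left and lower right quadrants, and most of their members lie within 1 of the origin on each axis.

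Most reversals were small. The median effects of the 413 genes were 0.30 in round and -0.46 in elongating cells, and those of the 340 genes were -0.24 and 0.42. At least 0.5 on the log2 scale at both stages was reached by 50 of the 413 and 26 of the 340. At least 2-fold at both stages was reached by C1qc and Stab1 in the first class and by 3 genes in the second, Rab23 and Gpm6a among them; Gpm6a was singled out after its values were seen. C1qc in round cells and Gpm6a at both stages reached the level limit of 10 only in the genotype where they were higher, so they had to differ there, and their folds are given as values only. This held for 4 of the 413 and 2 of the 340 genes and for none in the 4 single-stage classes. The same genes were largely found by count models on recovered reads: edgeR placed 629 genes in the first class, 349 of them shared with limma, and 405 in the second, 320 of them shared. DESeq2 placed 324 (299 shared) and 246 (244 shared). The edgeR fit used the deposited scaling and DESeq2 its own scaling of the same kind. This overlap therefore does not bear on the choice of scaling.

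Promoters were searched for letters that match binding motifs of spermatid factors, in the 250 bases before each RefSeq start (GRCm38.p6) and on both strands. The letters were TGACGTCA, the palindrome of CREM and its relatives, TGACG, its short form, which each palindrome also holds, and GTTGCCA, part of the motif of RFX factors. A promoter was listed for 12286 of the tested genes, and for 10584 of the 13365 genes sorted into classes. TGACGTCA was in 2.17%, 3.0%, 2.47% and 1.32% of the promoters of the 4 larger classes, in the order used above (up in round and down in elongating, the opposite, up in elongating and down in elongating), against 3.11% of all. TGACG was in 28.2%, 30.7%, 42.0% and 26.3% against 29.3%; the 42.0% of the genes that rose in elongating cells were 34 of 81 promoters. GTTGCCA was in 6.19%, 2.62%, 8.64% and 5.26% against 4.83%. A match describes the letters only.

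The promoters of 4 genes from 3 of the classes are shown with the motifs in capitals, chosen among genes described below whose window could be printed. Rab23 (chr1:33719646-33719895, plus strand) is among the genes that reversed over 2-fold at both stages, Col16a1 (chr4:130047590-130047839, plus strand) leads those that rose in elongating cells, and Gm20268 (chr1:101155518-101155767, plus strand) is the first of those that fell there with a window that could be printed. Ppp1r15a (chr7:45526269-45526518, minus strand) is 1 of 2 genes in the class that rose in elongating cells with TGACGTCA. All are written 5′ to 3′ and end at the base before the RefSeq start.
Rab23: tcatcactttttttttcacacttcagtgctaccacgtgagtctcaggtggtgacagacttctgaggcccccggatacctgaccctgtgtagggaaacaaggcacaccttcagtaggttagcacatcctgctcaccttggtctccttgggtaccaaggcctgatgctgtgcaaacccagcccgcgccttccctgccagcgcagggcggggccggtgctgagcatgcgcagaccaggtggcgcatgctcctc
Col16a1: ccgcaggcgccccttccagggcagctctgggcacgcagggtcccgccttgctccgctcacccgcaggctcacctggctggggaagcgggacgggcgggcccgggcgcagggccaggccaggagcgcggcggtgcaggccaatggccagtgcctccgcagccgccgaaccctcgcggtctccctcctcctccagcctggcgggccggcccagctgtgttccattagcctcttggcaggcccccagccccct
Gm20268: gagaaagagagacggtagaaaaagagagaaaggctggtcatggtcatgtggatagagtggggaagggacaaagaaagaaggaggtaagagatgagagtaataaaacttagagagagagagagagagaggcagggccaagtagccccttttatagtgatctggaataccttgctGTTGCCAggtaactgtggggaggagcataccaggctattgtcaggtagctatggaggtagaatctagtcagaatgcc
Ppp1r15a: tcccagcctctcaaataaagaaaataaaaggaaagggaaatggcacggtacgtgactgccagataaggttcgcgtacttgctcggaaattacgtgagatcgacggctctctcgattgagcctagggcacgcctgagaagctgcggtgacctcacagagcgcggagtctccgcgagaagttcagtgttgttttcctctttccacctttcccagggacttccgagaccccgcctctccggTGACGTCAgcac
The capitals in Gm20268 mark GTTGCCA and those in Ppp1r15a mark TGACGTCA, while the windows of Rab23 and Col16a1 hold none of the 3 motifs. Ppp1r15a overlaps Tulp2 on the opposite strand.

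Macrophage genes were among the genes with the largest interactions of those that rose in round and fell in elongating cells. C1qc (chromosome 4, 136889804 to 136893065), a chain of complement C1q, measured 5.73 and 6.05 in round WT and 14 and 13 in round KO-labelled libraries. In elongating cells it measured 655 and 646 in WT libraries, against 147 and 185 under the KO label. Its interaction of -3.04 is given as a value only. In round cells C1qc reached the level limit only under the KO label, so it had to differ there. The round values were low and did not overlap between genotypes, and the elongating values were far higher in WT. Where values go from a pair to another below, the first pair is WT and the second KO-labelled. Csf1r, the receptor for the macrophage growth factor CSF1, went from 14.6 and 16.3 to 34.3 and 27.6 in round and from 749 and 777 to 324 and 319 in elongating libraries, an interaction of -2.19 (adjusted p = 7.2e-07, limma). Stab1, a scavenger receptor, went from 12.1 and 13.9 to 29.9 and 25.9 in round and from 204 and 195 to 83.4 and 88.6 in elongating libraries. Dock8, an exchange factor of white blood cells, went from 12.1 and 10.9 to 26.7 and 18.6 in round and from 187 and 169 to 95 and 88.6 in elongating libraries. In each of the 4 genes WT and KO-labelled libraries were apart at both stages, which the rule that named them required. Csf1r overlaps Hmgxb3 and Stab1 overlaps Nt5dc2, both on the opposite strand.

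Over the whole list of 20 macrophage and leukocyte markers, the interaction was lower for 16 and higher for 1. All 16 lower calls held under the 3 other scalings, as did 2748 of the 2750 over all tested genes. Under total-count scaling 19 were lower and 1 higher. The background of lower calls over all genes was 17.5%. The median effect of the list was 0.57 in round and -1.22 in elongating cells, against 0.03 and -0.07 over all tested genes. H2-Aa, of the antigen-presenting MHC class II pathway, had an interaction of -2.82 but stood at 3.18 and 2.42 in round WT and 8.90 and 11.3 in round KO-labelled libraries. Its partner Cd74 had -2.28, with 3.18 and 4.84 in round WT and 8.90 and 10.1 in round KO-labelled libraries. The marker that went the other way was Aif1, with 0.12 in round and 0.95 in elongating cells. No marker of the list was at 0 in any library. The list took 0.0299% to 0.0318% of reads in round libraries, 0.100% to 0.101% in elongating WT and 0.0770% to 0.0780% in elongating KO-labelled libraries, and Aif1 made up most of these sums. Only 8 of the 20 markers reached 10 in at least 2 libraries of each stage. The part of these cells in other results was not tested.

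Genes of the acrosome, the tail and the ribosome were also among those that rose in round and fell in elongating cells. Spaca3 (chromosome 11, 80858365 to 80867814), an acrosomal membrane protein, measured 1261 and 1217 in round WT and 1627 and 1782 in round KO-labelled libraries. In elongating cells it measured 608 and 616 in WT libraries, against 252 and 269.6 under the KO label. Its interaction was -1.69 (SE 0.088, adjusted p = 4.3e-09, limma), and -2.16 under total-count scaling. The KO-labelled libraries were above both WT libraries in round cells and below both in elongating cells. Tsga8, a spermatid nuclear protein gene on the X chromosome, went from 2888 and 2967 to 3682 and 3856 in round and from 1694 and 1560.3 to 915 and 928 in elongating libraries (interaction -1.18, adjusted p = 8.4e-09, limma). Tekt4, a filament protein of the axoneme, went from 6044 and 6224 to 7944 and 7864 and from 1235 and 1281 to 844 and 773 (interaction -1.0, adjusted p = 2.1e-08, limma).

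Slc2a3, which encodes the glucose transporter GLUT3, measured 3292 and 3305 in round WT against 4727 and 4911 in round KO-labelled and 1482 and 1521 in elongating WT against 1193 and 1169 in elongating KO-labelled libraries. This was an effect of 0.55 in round and -0.35 in elongating cells. Prkaca, the catalytic subunit of protein kinase A, had effects of 0.29 and -0.62, and Tssk4, a testis-specific serine kinase, 0.19 and -0.70. Under total-count scaling their round effects of 0.20 and 0.10 missed the test. The 135 members that kept this class in all 18 alternative fits also held Atf6, a sensor of unfolded proteins (0.80 in round and -0.53 in elongating cells), Hdac5, a histone deacetylase (0.52 and -0.80), and Kdm1a, a histone demethylase (0.42 and -0.64).

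Several large interactions of this class rested on low values. Rbm45, an RNA-binding protein gene, went from 30.5 and 41.2 to 65.5 and 63.7 in round and from 30.9 and 36.1 to 13.6 and 11.3 in elongating libraries. Ptpro, a receptor phosphatase gene, went from 15.3 and 14.5 to 38.8 and 35.5 and from 51.6 and 67.8 to 34.9 and 41.5. Plekhb2 had effects of 1.47 and -0.40 and 6720468P15Rik of 1.18 and -0.75. All 4 had adjusted p of the interaction from 9.6e-06 (Plekhb2) to 0.00082 (6720468P15Rik) by limma. The rule that named them required a called interaction and WT and KO-labelled libraries apart at both stages, so neither is separate support.

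**Figure D3:**
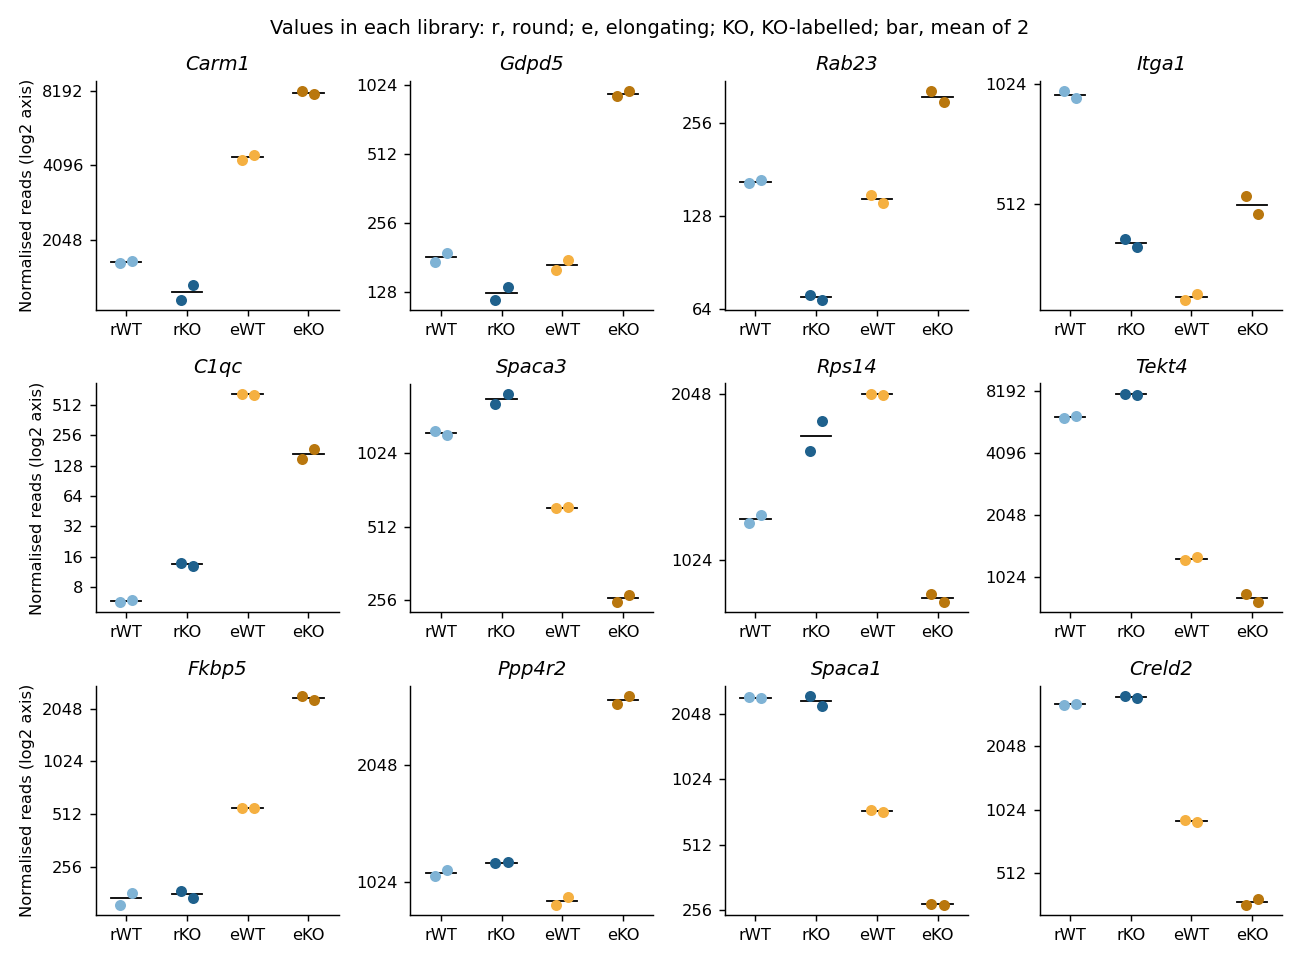
Normalised read counts of 12 genes in each of the 8 libraries on log2 axes, with a bar at the mean of 2 libraries; r is round, e is elongating and KO is KO-labelled. Carm1, Gdpd5, Rab23 and Itga1 are lower in round and higher in elongating KO-labelled libraries, C1qc, Spaca3, Rps14 and Tekt4 the reverse, and the last row shows genes that changed over 2-fold in elongating cells with a small round effect.

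In the opposite reversal, a fall in round and a rise in elongating cells, the genes named first are Gdpd5, Tagln, Rab23 and Itga1, which had the largest interactions of those that kept this class under the other scalings with libraries apart at both stages. Gdpd5 (chromosome 7, 99381414 to 99461877), a phosphodiesterase of glycerophospholipid metabolism, measured 173 and 188 in round WT and 118 and 135 in round KO-labelled libraries. In elongating libraries it measured 159 and 176 in WT libraries, against 912 and 956 under the KO label. WT stood at about the same level at both stages, and the KO-labelled libraries lay below it in round and well above it in elongating cells. The interaction was 2.99 (SE 0.14, adjusted p = 2.1e-09, limma).

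Rab23 (chromosome 1, 33719887 to 33742564), a small GTPase that restrains Hedgehog signalling and is linked to cilia, went from 164 and 168 to 71.2 and 68.7 in round and from 149.5 and 141 to 324 and 299.7 in elongating libraries. Its effect was over 2-fold at both stages, -1.23 and 1.09, with an interaction of 2.33 (SE 0.16, adjusted p = 3.3e-08, limma). Itga1, the alpha subunit of a collagen-binding integrin, went from 982 and 945 to 418 and 401 in round and from 295 and 306 to 537 and 483 in elongating libraries (interaction 1.99, adjusted p = 3.7e-09, limma). The stages differed less in KO-labelled than in WT libraries. Pelo lies within Itga1 on the same strand, so the assignment of reads between them is uncertain. Tagln, a smooth-muscle marker, went from 45.2 and 40.6 to 24.8 and 24.8 in round and from 43.8 and 43.3 to 175 and 106 in elongating libraries. Its 2 elongating KO-labelled libraries stood far from each other, and Tagln overlaps Pcsk7 on the opposite strand.

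Genes of higher level reversed in the same sense. Gtpbp2, a GTPase that helps release stalled ribosomes, went from 739 and 723 to 567 and 597 in round and from 4771 and 4581 to 9885 and 10061 in elongating libraries. Cyth3, an exchange factor for ARF GTPases, had effects of -0.22 and 1.18. Brinp3 had -0.60 and 1.35, and Nfkbiz, an inducible regulator of NF-kappaB targets, -0.64 and 1.11. Prkar2a, a regulatory subunit of protein kinase A, went from 2034 and 2092 to 1794 and 1643 in round and from 37204 and 36653 to 62339.9 and 60185 in elongating libraries, effects of -0.26 and 0.73, or -0.35 and 0.17 under total-count scaling. Pkm, the last enzyme of glycolysis, fell by 0.41 in round and rose by 0.36 in elongating cells with the deposited values, but under total-count scaling the elongating effect was -0.20. The 13 members that kept this class in all 18 alternative fits were Gdpd5, Rab23, Itga1, Gtpbp2, Carm1, Sec1, Tmem184c, Gabarapl1, Usp12, Prkar2a, Tex35, Gm5893 and Herpud2. Among them Gabarapl1, an autophagy protein, had -0.32 in round and 0.68 in elongating cells, and Usp12, a deubiquitinase, -0.34 and 0.67.

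Gpm6a, a neuronal membrane glycoprotein, reversed over 2-fold at low values. It went from 18.5 and 19.4 to 6.99 and 6.76 in round and from 9.02 and 2.88 to 11.6 and 17 in elongating libraries. Under total-count scaling its elongating effect of 0.70 missed the test.

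Among the 104 genes that rose in elongating cells with a small round effect, Fkbp5, Ppp4r2 and Prdm10 stayed in the class in all 18 alternative fits. Fkbp5 (chromosome 17, 28399094 to 28517527), a co-chaperone of steroid receptors, measured 156 and 182 in round WT and 186 and 170.2 in round KO-labelled libraries, which overlapped. In elongating cells it measured 556 and 554 in WT libraries, against 2413 and 2296 under the KO label. The effect was 0.079 in round (adjusted p = 0.52, limma) and 2.08 in elongating cells, an interaction of 2.0 (SE 0.12, adjusted p = 9.6e-09, limma). Ppp4r2, a regulatory subunit of protein phosphatase 4, went from 1063 and 1102 to 1146 and 1154 in round and from 899 and 939 to 2934 and 3065 in elongating libraries. Prdm10, a zinc-finger regulator, went from 84 and 85.3 to 93.5 and 91.8 and from 108 and 117 to 359 and 343. Their interactions were 1.62 and 1.5 (adjusted p = 1.2e-09 and 4.1e-06, limma).

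Col16a1 (chromosome 4, 130047840 to 130099283), a collagen gene, had the largest interaction of those that held under the other scalings. It went from 984 and 1017 to 1303 and 1289 in round and from 632 and 629 to 3256 and 3325 in elongating libraries. The round effect of 0.37 was small but called (adjusted p = 2.3e-05, limma), so Col16a1 changed at both stages. Pdik1l, a kinase gene, and Trerf1, a transcriptional regulator, changed by 1.89 and 1.86 in elongating and had -0.051 and 0.045 in round cells, which did not pass the test. Habp4 and Ppp1r15a were picked after their values were seen, for the CREM palindrome in their promoters. Habp4, an RNA-binding protein gene, went from 27551 and 27227 to 63663 and 62598 in elongating cells, and Ppp1r15a, whose product GADD34 reverses the translational arrest of the stress response, from 92.8 and 86.5 to 269.6 and 315. In round cells Habp4 had 0.23, which was called, and Ppp1r15a -0.054, which was not. Of the 104 genes, edgeR placed 100 and DESeq2 84 in the same class. Under the other scalings 6 of the 104 stayed in it.

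The 96 genes that fell in elongating cells with a small round effect included spermatid genes of the acrosome and early haploid stage. Spaca1 (chromosome 4, 34024874 to 34050191), a membrane protein that acrosome formation needs, measured 2451 and 2425 in round WT and 2471 and 2223 in round KO-labelled libraries, which overlapped. In elongating libraries it measured 737 and 727 in WT libraries, against 273 and 271 under the KO label. The effect was -0.057 in round and -1.42 in elongating cells, an interaction of -1.37 (SE 0.079, adjusted p = 9.6e-09, limma). Izumo4, of the family of the sperm-egg fusion protein IZUMO1, went from 358 and 362 to 167 and 155 in elongating cells with a round effect of 0.091. Ccna1, the cyclin of meiotic and early haploid cells, went from 865 and 899.8 to 446 and 432 with a round effect of 0.091; it overlaps 4931419H13Rik on the opposite strand. Both round effects missed the test by limma.

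Creld2, a gene of the endoplasmic reticulum stress response, measured 3212 and 3266 in round WT and 3539 and 3487 in round KO-labelled libraries. In elongating cells it measured 915 and 895 in WT libraries, against 365 and 388 under the KO label. Its interaction was -1.38 (SE 0.067, adjusted p = 2.5e-09, limma). Mxd4, a MYC antagonist, went from 384 and 372 to 157 and 136 in elongating cells and was at 745 and 748 and at 764 and 769 in round WT and KO-labelled libraries. The remaining members named by rule were 1700001P01Rik, Ppp2r3d, the lincRNA Gm20268, Tmem243 and Asb15. Their elongating effects ran from -1.51 (Gm20268) to -1.31 (Ppp2r3d) and their round effects from -0.10 to 0.13. Tmem243 overlaps Dmtf1 on the opposite strand. In all 18 alternative fits 24 of the 96 genes stayed in this class, Spaca1, Izumo4, Creld2, Mxd4, Asb15, Gm20268 and 1700001P01Rik among them.

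Few genes changed over 2-fold in round cells with a small elongating effect. Clasrp (chromosome 7, 19581035 to 19604486), a splicing-related gene picked after its values were seen, measured 642 and 604 in round WT and 2021 and 2049 in round KO-labelled libraries. In elongating cells it measured 1099.6 and 1126 in WT libraries, against 1041 and 1223 under the KO label, which overlapped. The effect was 1.71 in round and 0.021 in elongating cells, an interaction of -1.69 (SE 0.094, adjusted p = 6.8e-09, limma). Under total-count scaling the elongating effect was -0.54, outside the limit set for this class. Man2a2, an enzyme of N-glycan processing, was the 1 gene that kept the class under all 3 other scalings, with 457 and 448 against 1002 and 996 in round and 726 and 771 against 958 and 952 in elongating libraries. Its elongating effect of 0.35 was itself called, and Man2a2 overlaps Hddc3 on the opposite strand. The other 5 members were Gata6, a zinc-finger factor (1.35 in round and 0.051 in elongating cells), Shmt1, an enzyme of folate metabolism (1.0 and -0.034), H2-DMa, which loads peptides on MHC class II (1.12 and 0.19), the homeobox gene Pou6f1 (1.28 and -0.19) and Arhgap33os (1.01 and 0.14).

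Of the 11 genes that fell in round cells with a small elongating effect, 0 kept the class under all 3 other scalings, so those named are the 5 with the largest interaction under the deposited values. Spon1, an extracellular matrix protein gene, went from 58.5 and 63.6 to 19.1 and 19.7 in round and from 82.5 and 63.4 to 73.7 and 67.9 in elongating libraries (interaction 1.57, adjusted p = 0.00048, limma). Cacna1s, a calcium channel subunit, went from 182 and 192 to 74.4 and 78.3 and from 122 and 134 to 139.6 and 106. Manba, Gbe1 and Arsb, which encode the enzymes beta-mannosidase, glycogen branching enzyme and arylsulfatase B, had round effects of -1.08, -1.07 and -1.04. Their elongating effects were 0.076, 0.052 and 0.069. Under total-count scaling these 5 genes still had called interactions, from 0.65 (Arsb) to 1.13 (Spon1), but with elongating effects from -0.63 (Cacna1s) to -0.48 (Manba).

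**Figure D4:**
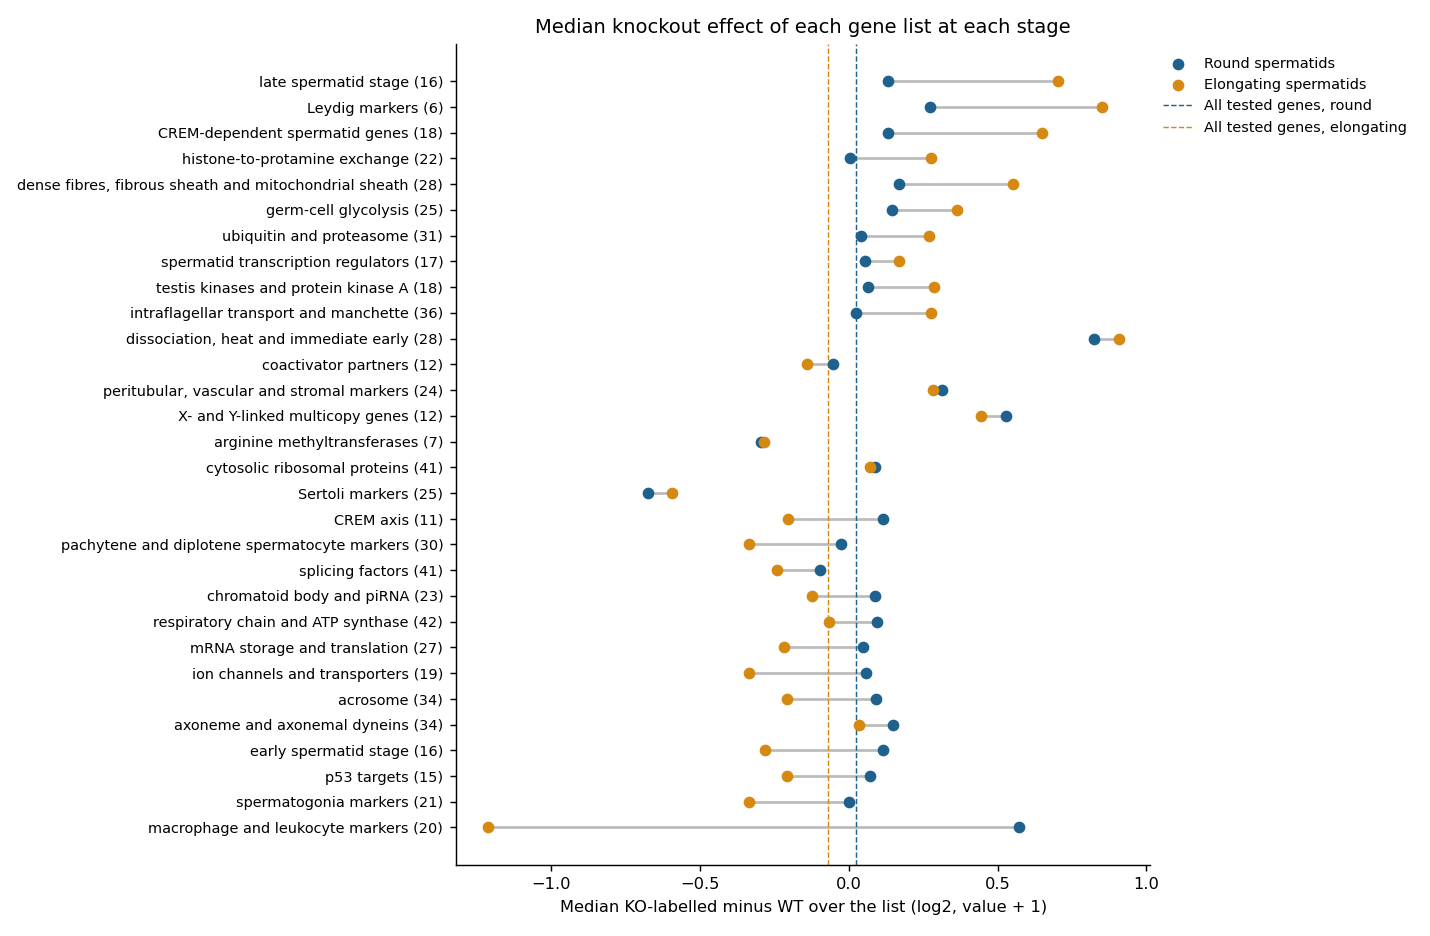
Median knockout effect of each gene list with at least 6 tested members (number in brackets) in round (blue) and elongating (orange) spermatids, as log2(value + 1) differences, with dashed lines at the medians of all tested genes. The macrophage list goes from 0.57 in round to -1.22 in elongating cells, and the late spermatid list from 0.13 to 0.70.

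The CREM axis split in both directions. Of its 11 genes the interaction was higher for 4 (36.4%) and lower for 5 (45.5%), with a median of -0.12. Over all tested genes 19.3% were higher and 17.5% lower. The lower calls held under the 3 other scalings for 5 genes, as nearly all lower calls did, and the higher calls for 0. Total-count scaling gave 0 higher and 8 lower. Crem went from 3347 and 3336 to 3468 and 3496 in round and from 3050.1 and 3063 to 4728 and 4834 in elongating libraries. Its interaction was 0.59 (adjusted p = 2.6e-07, limma), and 0.11, which was not called, under total-count scaling. Fhl5, the gene of ACT, reversed, from 1476 and 1518 to 1697 and 1699 in round and from 5083 and 5098 to 4616 and 4232 in elongating libraries (interaction -0.39, adjusted p = 0.00016, limma). Under total-count scaling its round effect of 0.093 missed the test. Gtf2a1l, the germ-cell form of the basal factor TFIIA, also reversed, with 0.11 in round and -0.29 in elongating cells, or 0.025 and -0.85 under total-count scaling.

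Tbpl1, the TBP-related factor TRF2 of spermatids, had the largest interaction of the axis, -0.96 (adjusted p = 1.1e-07, limma). It went from 3395 and 3483 to 3718 and 3681 in round and from 645 and 607 to 359 and 334 in elongating libraries, and the round difference missed the test. Tbpl1 overlaps Slc2a12 on the opposite strand. Creb1, a CREM relative, had an interaction of -0.79 and Crebbp, the gene of CBP, -0.29. Kif17 and Atf1 had interactions of 0.53 and 0.54, or 0.053 and 0.065 under total-count scaling, where neither was called; Kif17 overlaps Sh2d5 on the same strand. Fhl4, a LIM-domain relative of ACT, had 0.29, which turned to -0.19 under total-count scaling. Ep300, the gene of p300, fell at both stages (-0.44 and -0.40), and its interaction of 0.033 missed the test (adjusted p = 0.81, limma). Under total-count scaling its effects were -0.53 and -0.96, with an interaction of -0.44 that was called, and without the 50 most abundant genes the interaction was -0.38, also called. Taf7l missed the test at -0.12, but was called at -0.58 and -0.52 under these 2 scalings.

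Of 7 tested arginine methyltransferase genes, Carm1 had a higher and Prmt1 a lower interaction (14.3% each). These shares lay near the 19.3% and 17.5% over all tested genes. Prmt1 is the main enzyme of asymmetric arginine methylation. It went from 79.5 and 78.7 to 71.9 and 84 in round and from 119 and 114 to 67.9 and 54.7 in elongating libraries (interaction -0.89, adjusted p = 0.0067, limma). Of 12 coactivator partners, 4 were higher (33.3%) and 2 lower (16.7%), the latter near the share over all genes. Under the other scalings 0 of the higher and 2 of the lower held, as nearly all lower calls did. Total-count scaling gave 0 higher and 10 lower. Pabpc1, a poly A binding protein that CARM1 methylates, had effects of 0.076 in round and -0.68 in elongating cells, the former -0.014 under total-count scaling. Kat2b, an acetyltransferase, had an interaction of 0.30, which turned to -0.18 under total-count scaling. Tdrd3, a reader of methylated arginine, had 0.28, which turned to -0.19.

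Genes reported to need CREM had mostly higher effects in elongating cells with the deposited scaling. Of 18, the interaction was higher for 14 and lower for 3, against 19.3% and 17.5% over all genes, and under total-count scaling the counts were 6 and 7. Prm2, the second protamine, went from 38735 and 38117 to 40597 and 41971 in round and from 1178034 and 1188677 to 2215306 and 2162873 in elongating libraries. Its interaction was 0.78 (adjusted p = 1.2e-09, limma) and 0.31 under total-count scaling. Hspa1l, a testis heat-shock protein of the HSP70 family, went from 73167 and 72953 to 150885 and 147540.2 in elongating libraries. In round libraries it measured 7286 and 7458 against 7221 and 7009, a difference that missed the test (interaction 1.08, adjusted p = 2.7e-10, limma). The 3 lower members were Acr, Acrv1 and Ldhc. Acr, the acrosomal protease acrosin, reversed, with 0.18 in round and -0.63 in elongating cells, although its round effect was 0.09 under total-count scaling.

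The late and early spermatid lists lay on opposite sides of 0 with the deposited scaling. The late list shares most of its genes with the CREM-dependent list, so these are not separate findings. Of 16 late genes the interaction was higher for 14 (87.5%) and lower for 1 (6.25%), with a median of 0.59. Of 16 early genes it was higher for 1 (6.25%) and lower for 12 (75%), with a median of -0.28. Over all tested genes 19.3% were higher and 17.5% lower. Under total-count scaling the late counts were 7 and 3 and the early counts 0 and 16. Among late genes Tnp1, a transition protein, went from 188678 and 188073 to 339997 and 321575 in elongating cells with 0.03 in round, and Spata18 had 0.65 and -0.05. Among early genes Acrv1, an acrosomal antigen, went from 3269 and 3269 to 3593 and 3601 in round and from 1216 and 1268 to 714 and 628 in elongating libraries (interaction -1.03, adjusted p = 9e-08, limma). Their shares of reads, given above for the stage check, moved with genotype in elongating libraries, and the part of the stage makeup of the fractions in other results was not tested.

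**Figure D5:**
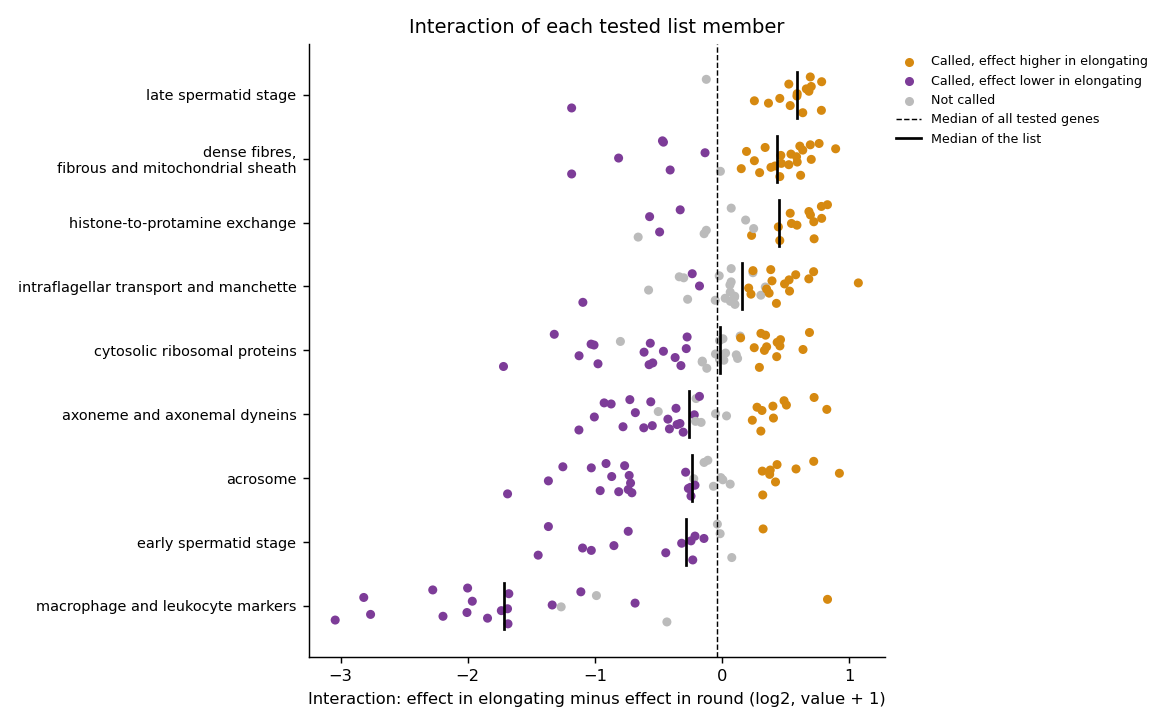
Interaction of each tested member of 9 gene lists on the log2(value + 1) scale, coloured by call, with a bar at the median of the list and a dashed line at the median of all tested genes, -0.04. Late spermatid and dense fibre genes lie mostly to the right with the deposited scaling, and early spermatid, acrosomal and macrophage genes mostly to the left.

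The acrosome list held 7 reversals and 3 genes that changed in elongating cells with a small round effect. Of 34 genes the interaction was higher for 9 (26.5%) and lower for 18 (52.9%), against 19.3% and 17.5% over all tested genes. Under the other scalings 2 and 18 of these held, and nearly all lower calls over all genes held too. Under total-count scaling 2 were higher and 23 lower. The median effects were 0.092 in round and -0.21 in elongating cells. The reversals, all of them up in round and down in elongating cells, were Acr, Spaca3, Spaca4, Zpbp, Dpy19l2, Fam170b and Lyzl6, of which 2 kept the class under the other scalings. Zpbp, a zona pellucida binding protein gene, had 0.17 and -0.70, and its relative Zpbp2 -0.11 and -1.02. Dpy19l2, which anchors the acrosome to the nucleus, had 0.14 and -0.11. Members with the opposite sign included Cylc2, a protein of the perinuclear theca (0.014 in round and 0.94 in elongating cells), and Izumo2 (-0.068 and 0.65).

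Tail genes were counted by structure. Of 34 axoneme genes the interaction was higher for 10 (29.4%) and lower for 18 (52.9%). Of 28 genes listed for the dense fibres and sheaths it was higher for 21 (75%) and lower for 6 (21.4%). Over all tested genes 19.3% were higher and 17.5% lower, so the lower count of the second list lay near its share. Under total-count scaling the counts were 2 and 28 for the axoneme and 6 and 12 for the accessory structures. Among axoneme genes Rsph6a, a radial spoke protein, went from 3439 and 3419.9 to 3901 and 3924 in round and from 1062 and 989 to 613 and 616 in elongating libraries, and Dnah10, an inner arm dynein, had 0.16 and -0.72. Under total-count scaling the round effects of both, 0.10 and 0.066, missed the test. Dnah11, which overlaps Cdca7l on the opposite strand, rose at both stages, from 14 and 16.9 to 196 and 224 and from 10.3 and 18.7 to 91.2 and 82.9, but less in elongating cells (interaction -1.13, adjusted p = 0.024, limma).

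Among the accessory structures Odf2, a core outer dense fibre protein, went from 369528 and 377125 to 640570.1 and 618395 in elongating cells with -0.01 in round, and Odf3b rose at both stages, by 0.52 and 1.42. Actl7b, an actin-like protein of spermatids, reversed, with 0.18 in round and -0.63 in elongating cells. The dense fibre gene Odf3 and Tsga8, also in this list, reversed in the same direction. The list thus also holds spermatid genes that are not named for these structures. Of 36 genes of intraflagellar transport and the manchette, the microtubule skirt that shapes the head, 15 were higher (41.7%) and 3 lower (8.33%). Over all tested genes 19.3% were higher and 17.5% lower. Under total-count scaling the counts of this list were 2 and 21. Ift43, of the retrograde transport complex, went from 1294 and 1307 to 1391 and 1333 in round and from 315 and 284 to 139.6 and 153 in elongating libraries, and Kif27, a kinesin, had -0.072 and 1.0. Hook1, a manchette linker that overlaps 9530080O11Rik on the opposite strand, reversed with -0.14 and 0.59, the latter 0.021 under total-count scaling. Bbs7 had 0.062 and 0.75, with an interaction of 0.21 under total-count scaling that was not called.

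Chromatin genes of the histone-to-protamine exchange had higher interactions for 13 (59.1%) and lower for 3 (13.6%) of 22 genes, or 6 and 6 under total-count scaling. Over all tested genes 19.3% were higher and 17.5% lower. Reversals were seen for H1fnt, the spermatid linker histone H1T2 (-0.42 and 0.30), H2afb1 (-0.21 and 0.25), Cdyl (-0.10 and 0.13) and Epc1, a subunit of the NuA4 acetyltransferase (-0.21 and 0.62). H2afz, the gene of histone variant H2A.Z, reversed the other way (0.24 and -0.25). None of these 5 reversals held under all 3 other scalings: under total-count scaling the elongating effect of Epc1, for example, was 0.055, which missed the test. Mettl23, which overlaps 3 other genes, had 0.038 and 0.76, and its interaction was not called under total-count scaling (0.25). Of 17 transcription regulators 9 were higher (52.9%) and 4 lower (23.5%), or 3 and 10 under total-count scaling. Rfx2, a master regulator of ciliary genes in spermatids, went from 15179 and 14993 to 26257 and 26449 in elongating cells with 0.10 in round. Sox30 and Tcfl5 had interactions of 0.73 and 0.77, and Tcfl5 overlaps Col9a3 on the opposite strand.

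Ribosomal protein genes spread widely, and several reversed. Of 41 tested, the interaction was higher for 13 (31.7%) and lower for 15 (36.6%), against 19.3% and 17.5% over all tested genes. Under the other scalings 1 and 15 of these held, and nearly all lower calls over all genes held too. Total-count scaling gave 1 higher and 30 lower. The median interaction was -0.019. Rps14, of the small subunit, went from 1196 and 1237 to 1615 and 1827 in round and from 2047 and 2039 to 890.2 and 862 in elongating libraries. The interaction was -1.72 (SE 0.08, adjusted p = 2.1e-09, limma), and Rps14 kept its reversal in all 18 alternative fits. Rpl10 had 0.48 in round and -0.84 in elongating cells. Rpl27 and Rps3 had interactions of -1.12 and -1.03 with round effects that missed the test. Ribosomal genes have many processed copies, so the assignment of their reads is uncertain, and Rps14 also overlaps Ndst1 on the opposite strand.

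Of 42 nuclear genes of oxidative phosphorylation, the interaction was lower for 14 (33.3%) and higher for 3 (7.14%), against 17.5% and 19.3% over all tested genes. Under the other scalings 14 and 0 of these held, and nearly all lower calls over all genes held too. Total-count scaling gave 35 lower and 0 higher. Atp5b, the catalytic subunit of ATP synthase, reversed, from 4738 and 4735 to 5920.2 and 5718 in round and from 2689 and 2579.8 to 1641 and 1687 in elongating libraries (interaction -0.96, adjusted p = 8.1e-09, limma). Uqcrb, of complex III, had -1.02 in elongating cells and -0.022 in round, which missed the test; it overlaps Gm10767. Ndufs4, of complex I, rose in round cells by 0.67 with 0.018 in elongating cells, which missed the test. Ndufb5, which overlaps Mrpl47, had an interaction of -1.05. Among 25 glycolytic genes the interaction was higher for 12 (48%) and lower for 5 (20%), the latter near the share over all genes. Under total-count scaling these counts were 4 and 12. Gpi1 fell by 0.12 in round and rose by 0.57 in elongating cells, the latter 0.0059 under total-count scaling, and the lactate carrier Slc16a1 had an interaction of 0.90, which became 0.43 and was not called under total-count scaling.

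Channels of the sperm tail moved apart. Catsperg2, an auxiliary subunit of the CatSper calcium channel, rose at both stages and more so in elongating cells, from 1676 and 1697 to 2253 and 2314 in round and from 842 and 842 to 3576 and 3567 in elongating libraries (interaction 1.65, adjusted p = 2.7e-10, limma, and 1.17 under total-count scaling). The pore subunit Catsper3 and the CatSper partner Efcab9 fell in elongating cells (-0.83 and -0.75) with 0.02 and 0.12 in round, which missed the test. Atp1a4, the sperm sodium pump, had an interaction of 0.93. Over the 19 tested genes of this list the interaction was higher for 4 (21.1%) and lower for 10 (52.6%), or 2 and 14 under total-count scaling. Among 18 kinases and phosphatases it was higher for 9 (50%) and lower for 3 (16.7%), or 3 and 11 under total-count scaling. Over all tested genes 19.3% were higher and 17.5% lower, so the higher channel and lower kinase counts lay near these shares. Ppp1cc, the phosphatase of sperm motility, had 0.88.

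RNA-handling genes are counted here beside the shares over all tested genes, 17.5% lower and 19.3% higher. Of 23 chromatoid body and piRNA genes 7 were lower and 5 higher, of 27 mRNA storage genes 9 and 7, and of 41 splicing factors 9 and 4. In percent the lower calls were 30.4%, 33.3% and 22.0% of the 3 lists and the higher calls 21.7%, 25.9% and 9.76%, so the higher chromatoid body and lower splicing counts lay near the shares over all genes. Tdrd7, a Tudor protein of the chromatoid body, reversed from 3458 and 3689 to 4411 and 4399.9 in round and from 891 and 917 to 592 and 696 in elongating libraries, while Tdrd6 and the PIWI gene Piwil1 had interactions of -0.71 and -0.70. Smg6, an endonuclease of nonsense-mediated decay that overlaps Srr, had 0.80. Adad1, a testis RNA-binding protein gene, reversed (0.21 and -0.74), Khdrbs3 had -0.92, and Fxr1, a translational activator of spermatids that overlaps Dnajc19, 0.76. Among splicing factors Tra2b, Snrpa, Hnrnpd and Rbmxl2 had interactions of -0.69, -0.56, -0.55 and -0.53. Under total-count scaling 16, 18 and 33 genes of these 3 lists were lower and 1, 2 and 0 higher.

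Of 31 ubiquitin and proteasome genes the interaction was higher for 13 (41.9%) and lower for 5 (16.1%), or 7 and 13 under total-count scaling. Over all tested genes 19.3% were higher and 17.5% lower, so the lower count lay near its share. Ubqlnl, a ubiquilin relative, reversed with -0.16 and 0.58, the ligase gene Rnf151 the other way with 0.16 and -0.61, and Uchl3 and Usp9y had interactions of -0.79 and 1.04. Under total-count scaling the elongating effect of Ubqlnl (0.018), the round effect of Rnf151 (0.069) and the interaction of Usp9y (0.57) missed the test, so neither reversal held. Of 12 tested multicopy genes of the sex chromosomes and their relatives, whose reads can be split between copies, 1 was called, Cypt12 at -0.29, and 6 were lower under total-count scaling.

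Immediate early and heat-stress genes mostly rose at both stages. Of 28 in this list 20 rose in round and 21 in elongating cells (71.4% and 75.0%), where 19.4% and 27.3% of all tested genes rose. The interaction was higher for 10 (35.7%) and lower for 6 (21.4%), against 19.3% and 17.5% over all tested genes. Under total-count scaling these counts were 4 and 13. These are genes that cells also induce when tissue is dissociated, and the part of handling in other results was not tested. Fosb, a subunit of AP-1, went from 50.3 and 49.6 to 119.5 and 128 in round and from 300.4 and 362 to 2009 and 1976 in elongating libraries (interaction 1.3, adjusted p = 3.6e-06, limma). Fosl2 and Egr2 had interactions of 2.13 and 1.52; that of Egr2 was not called under total-count scaling (0.85) or without the 50 most abundant genes (0.97). Atf3 had no read in either round WT library and 17.2 and 17.5 in the round KO-labelled libraries, so no ratio is given for its round effect. In elongating cells it measured 102 and 108 in WT libraries, against 405 and 415 under the KO label. Of 15 p53 targets 4 were lower (26.7%) and 1 higher (6.67%), or 10 and 1 under total-count scaling. Bbc3, the gene of the death protein PUMA, went from 42.6 and 35.7 to 10.8 and 15.8 in round and from 131 and 119.7 to 136 and 139.5 in elongating libraries, while Ccng1, Tnfrsf10b and Bax had -1.41, -1.33 and -1.17.

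Markers of the other testis cells are given beside the same shares over all genes, 19.3% higher and 17.5% lower. Of 30 spermatocyte markers 7 were higher and 10 lower; Dmc1, the meiotic recombinase, went from 267 and 299 to 148 and 152 in round and from 88.9 and 138 to 124 and 106 in elongating libraries (interaction 0.96), and Meiob and Mlh3 had 0.95 and -1.0. Under total-count scaling Dmc1 and Meiob were not called (0.49 and 0.51). Of 21 spermatogonial markers 2 were higher and 5 lower (9.52% and 23.8%), with Stra8 at -1.44 and Sohlh2 at 1.14. Sall4 and Ret had -2.34 and -1.68 at low values, with 27.1 and 27.4 and 10.3 and 10.1 in elongating WT libraries. Those of Ret lay just above the limit of 10 for testing. Both interactions are given as values only. Of 25 Sertoli markers 12 fell and 1 rose in round cells, and 14 fell and 0 rose in elongating cells. Over all tested genes 12.6% fell in round and 27.7% in elongating cells, against 48% and 56% of these markers. The list took 0.0417% and 0.0416% of reads in elongating WT against 0.0195% and 0.0199% in elongating KO-labelled libraries. Their interaction counts lay near the shares over all genes, higher for 4, Rhox8 (1.29) and Aard (0.93) among them, and lower for 5, with Trf at -1.51 and Gata1 at -1.42. Rhox8 and Aard were not called under total-count scaling (0.88 and 0.49). Of 24 peritubular, vascular and stromal markers 7 were higher and 3 lower, and the values of Tagln, Acta2 (1.07), Pdgfrb (1.17) and Pecam1 (-1.86) had no common direction; Pdgfrb was not called under total-count scaling (0.67). Total-count scaling gave 16, 9, 7 and 11 lower and 0, 1, 0 and 2 higher calls in these 4 lists. Of the Leydig, red blood cell and epididymal markers 6, 1 and 1 were tested, and limma called 0 interactions among them, with 0, 0 and 0 at an unadjusted p under 0.05. The part of these cells in the other results was not tested.

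Members of the classes differed in transcript length as the annotation gives it. The median length of the longest transcript was 2591 bases for the genes that rose in round and fell in elongating cells and 3604 for the opposite reversal, 3932 for those that rose and 2264 for those that fell in elongating cells with a small round effect, against 3237 over all 13365 genes. X-linked genes were 3.87%, 0.882%, 5.77% and 0% of the same 4 classes, against 3.38% of all genes, and for the opposite reversal this is 3 genes. These are descriptions, with no test.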

How the data were processed

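RNA from round and elongating spermatids of wild-type and Carm1 cKO mice was sequenced in 8 libraries, 2 for each of 4 groups. Poly A RNA went into an unstranded TruSeq preparation, per the labels' protocols. The submitters' processing notes name DESeq 1.16.0, HTSeq 0.6.0, TopHat2 2.0.10 and CASAVA 1.8.2, and the mm10 build. The deposited signal values are read counts per gene divided by DESeq size factors, per the labels and the values: the values are whole multiples of a step in each library, so that reads were recovered for 100% of them within 1e-06. The count of unmatched sample columns was 0.

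The 15685 genes with at least 10 in at least 2 libraries were fitted with limma 3.58.1 (R 4.3.3) on log2(value + 1) with 4 group means and an empirical Bayes trend, and p-values were adjusted by Benjamini-Hochberg. Alternatives were total-count scaling, library sizes without the 50 most abundant genes, edgeR 4.0.16 TMM factors, centred effects, pseudocounts of 0.25 and 10, other filters, edgeR's quasi-likelihood test and DESeq2 1.42.0 on recovered reads, a replicate block, stricter limits and each library left out. The limma code was tested on simulated data. Between groups, differences between replicates 1 and 2 correlated at -0.0946 to 0.0323 over 8605 genes, which showed no pairing by number. Whether libraries with the same number share mice was not tested. Replicates of a group differed by more than sampling noise.

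Named were Carm1, the 11 CREM axis genes, in each class up to 8 genes with the largest interaction whose libraries did not overlap and which kept the class under both library size scalings (the 5 largest with the deposited scaling where none did), and up to 4 called members with the largest interaction of each of 32 gene lists. The members and lists were chosen with earlier results of these data known. Positions are from GENCODE M21 (GRCm38), matched by symbol for 15099 genes and through RefSeq synonyms for 465, and promoters are from RefSeq. Of the promoters chosen, 3 with over 30 bases inside the gene model are not printed. Some genes are not reported here.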

Additional observations from a re-analysis of the deposited data

Results flagged for a closer look

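The results below stand here because the same contrast, KO-labelled against WT, differed between the 2 stages by limma's interaction test. The effect was higher in elongating than in round cells for 3031 genes and lower for 2750. It rose in round and fell in elongating cells for 413 genes and did the opposite for 340. In elongating cells 104 genes rose and 96 fell over 2-fold with a small round effect, and in round cells 7 rose and 11 fell over 2-fold with a small elongating effect. The interaction of Carm1, the targeted gene, was 1.28. Its total rose in the elongating KO-labelled libraries, which does not bear out a loss of Carm1 there. A total over the gene does not show whether the deleted exons are missing.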

How the results depend on the processing

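Counts are given in the order higher interaction, lower interaction, up in round and down in elongating, the opposite reversal, up and down in elongating, up and down in round. Total-count scaling gave 858, 7071, 810, 91, 12, 1023, 16 and 2. Library sizes without the 50 most abundant genes gave 1069, 6352, 729, 140, 15, 829, 14 and 2. Centring each stage on the median of all genes gave 180 up and 58 down in elongating and 3 up in round cells. The edgeR test gave 629 genes up in round and down in elongating, 167 down in elongating and 18 down in round, and DESeq2 gave 3 up in round. At an adjusted p under 0.01 there were 1783 lower interactions and 217 and 178 reversals. With the other stage's interval inside -0.3 to 0.3, the single-stage classes held 38, 39, 1 and 0 genes.

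Leaving out each library gave 2586 to 3143 higher and 2041 to 3111 lower interactions, reversals of 220 to 562 and 191 to 390, and single-stage classes of 81 to 118, 61 to 185, 4 to 9 and 5 to 11 genes. The interaction of Carm1 ran from 1.182 to 1.375. The first reversal class fell to 220, 232, 270 and 241 genes without round WT replicate 1, round WT replicate 2, round KO replicate 1 and round KO replicate 2, and the genes down in elongating to 61, 62, 61 and 65. Without elongating KO replicate 1 and 2 the latter were 185 and 154. The opposite reversal held 191 genes without round WT replicate 2. Genes up in round were 4 without elongating WT replicate 2, and those down in round 5, 7 and 6 without elongating WT replicate 1, elongating WT replicate 2 and elongating KO replicate 1. Each of these fits leaves out a library and keeps the same tested genes, and the cause of the changes was not tested. With the replicate block the counts were 2979, 2739, 410, 327, 105, 95, 7 and 11, and Carm1 had 1.278. Libraries of a block share a replicate number, which does not show whether they come from the same mice.

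The interaction turned for Fhl4 (-0.1858 with total-count scaling and -0.1229 without the 50 most abundant genes), Ep300 (-0.4386 and -0.3766, and -0.008294 to 0.0733 over the libraries left out, below 0 without elongating WT replicate 1), Kat2b (-0.177 and -0.1145), Tdrd3 (-0.1899 and -0.1273) and Atf3 (0.4196 with a pseudocount of 10). Of 143 named genes, 125 kept direction and call under total-count scaling, 141 with TMM factors, 140 with edgeR and 132 with DESeq2. Most were named for a called interaction, and class genes for keeping their class under total-count scaling where any did. These counts are therefore no separate support. Over all tested genes 856 of 3031 higher and 2748 of 2750 lower calls held under the 3 other scalings. With 2 libraries a group the median SE of an interaction was 0.215, which limits small reversals.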
